A study of Mus musculus with 6 samples.

Results

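The Notch genes of the lung endothelium described here are 3 receptor genes (Notch1, Notch2 and Notch4), 4 ligand genes (Dll1, Dll4, Jag1 and Jag2) and 3 target genes (Hes1, Hey1 and Hey2), taken by symbol from a deposited expression table. All 10 were found among its 24520 gene identifiers. The RNA came from endothelial cells, the lining of blood and lymph vessels, that were sorted by flow cytometry from wild-type mouse lungs, with 3 libraries at 18 months of age (labelled aged) and 3 at 8 months (labelled mAdu). No other genotype or treatment is named for any library, and the series as a whole concerns DNA methylation by DNMT3A and endothelial enhancers. Whether the libraries of an age came from separate mice is not stated in the labels, so the p-values measure the spread among these 6 libraries alone, and part of it may be technical.

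Notch signalling passes between touching cells. A ligand on one cell binds a receptor on its neighbour, the receptor is cut first by ADAM proteases and then by gamma-secretase, and the freed intracellular part joins the DNA-binding protein RBPJ in the nucleus to switch on repressor genes of the Hes and Hey families. In growing vessels DLL4 and NOTCH1 restrain the formation of tip cells, and in arteries Notch activity is part of how arterial identity is set and kept. JAG1 can oppose DLL4 where FRINGE glycosyltransferases have modified the receptor, and NOTCH4 is a receptor found mostly in endothelium.

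Between 18 and 8 months, none of the 10 genes passed the test. Values are TPM, transcript abundance per length and relative to the total of a library, and log2 differences are those of log2(TPM + 1), 18 minus 8 months, from limma. The threshold was a limma p-value of 0.05 after Benjamini-Hochberg adjustment over all 12748 genes averaging 1 TPM or more, and all 10 members were among them. The count of members past it was 0 of 10, beside 0.0235% of all genes tested, of which 0.00784% were higher and 0.0157% lower at 18 months. At an unadjusted p under 0.05, 1 member was higher (Hey1) and 0 were lower, beside 3.45% and 9.99% of all genes tested. In 0 of the 10 genes did the libraries of the 2 ages separate without overlap, beside 4.48% of all genes for higher and 14.2% for lower values at 18 months. Of the 10 estimates 5 were above 0 (50.0%, beside 33.8% of all genes). The count was 7 under median-of-ratios scaling (beside 51.0% of all genes), 8 after a correction for GC and length (beside 51.3%) and 3 without the first 18-month library. The 3 receptors and Dll4 had the estimates nearest to 0, all 4 ligands had a negative estimate and all 3 targets a positive one. The sign depended on the scaling for some ligands. With median-of-ratios scaling and with quantile normalization Dll4 turned positive, and when GC content and transcript length were regressed out Dll4 and Jag2 did. The positive sign of the 3 targets held under each of these scalings.

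**Figure D1:**
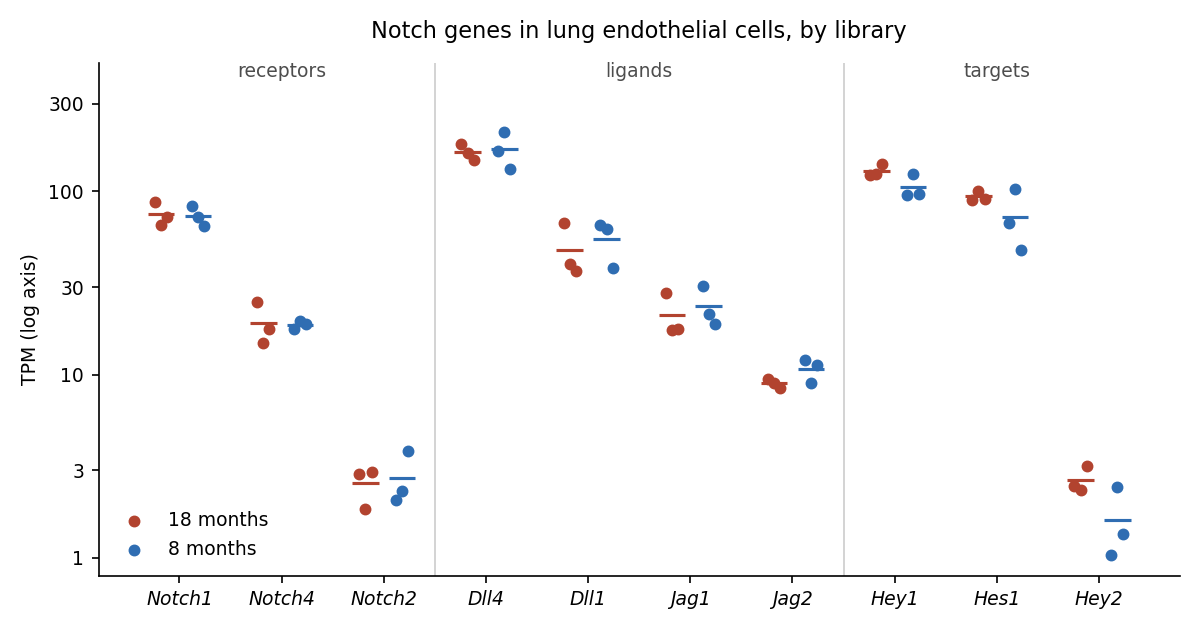
TPM of each Notch gene on a log axis, with 1 point per library, 18 months in red on the left and 8 months in blue on the right of each pair, and a bar at the mean of 3 libraries. The ages overlap in every gene, and the span from Dll4, between 132 and 212 TPM, to Hey2, between 1.04 and 3.15 TPM, is far wider than any gap between ages.

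The libraries held endothelial markers at high levels together with markers of other lung cells. Each of 12 pan-endothelial markers was detected, with Pecam1 between 1286 and 1442 TPM, and their sum lay between 12914 and 13911 TPM at 18 months and between 14448 and 16032 TPM at 8 months. Markers of airway epithelium summed to between 5578 and 13023 TPM at 18 months and to between 5982 and 7784 TPM at 8 months, nearly all of it Scgb1a1 of club cells, while Krt5 was at 0 in every library. Markers of alveolar epithelium summed to between 4363 and 7107 TPM at 18 months and to between 5414 and 13064 TPM at 8 months, highest in the third 8-month library. That library also had the highest sum of the 20 macrophage and monocyte markers, 1823 TPM, of which Lyz2 alone made up 1542 TPM. The sums ranged from 648 to 1823 TPM at 8 months and from 957 to 1753 TPM at 18 months. Single markers differed in their highest library. Cd68 and Chil3 were highest in the second 18-month library, and Ptprc and Marco in the third 8-month library. Csf1r, C1qa and Fcgr1 stayed under 1 TPM in every library. The part of these cells in the values below was not tested. In such bulk samples, fewer cells of a type and less RNA per cell cannot be told apart.

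Promoter windows show the regulatory letters near the starts of these genes. RefSeq on GRCm38.p6, the assembly also called mm10, gave 9 windows for 8 of the 10 genes, each running from 250 bases before to 50 bases after a start. Hes1 and Hey1 are without one. Gene spans given further on are those of GENCODE on GRCm38, and their starts can differ from those of RefSeq. The window of Hey2 (chr10:30842734-30843033, minus strand) is printed because it holds the extended RBPJ sequence CGTGGGAA, which is in capitals wherever it or its reverse complement TTCCCACG occurs.
Hey2: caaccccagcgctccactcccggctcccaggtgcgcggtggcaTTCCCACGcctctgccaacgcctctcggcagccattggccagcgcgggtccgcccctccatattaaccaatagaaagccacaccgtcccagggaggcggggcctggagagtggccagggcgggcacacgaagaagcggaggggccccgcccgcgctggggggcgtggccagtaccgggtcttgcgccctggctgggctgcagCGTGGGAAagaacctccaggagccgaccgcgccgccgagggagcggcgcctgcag
CGTGGGAA was found at 2 places in this window, at bases 44 to 51 in the reverse orientation and at bases 246 to 253 across the start of transcription, 194 bases apart. Of all 32851 windows in the table, on both strands, 0.734% held it and 4 held it more than once. The shorter GTGGGAA was in 6.38% and the core TGGGAA, which both longer forms contain, in 25.6% of all windows. Among the 9 windows of the members, Hey2 was the one with any of these 3. A match of letters is a description and not a measured binding site.

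DNA methylation, the subject of the series, falls on cytosines in CG pairs, and the next 3 windows are printed with each CG in capitals. They belong to the ligand and the receptors with the highest levels, Dll4 (chr2:119325534-119325833, plus strand), Notch1 (chr2:26503773-26504072, minus strand) and Notch4 (chr17:34564045-34564344, plus strand).
Dll4: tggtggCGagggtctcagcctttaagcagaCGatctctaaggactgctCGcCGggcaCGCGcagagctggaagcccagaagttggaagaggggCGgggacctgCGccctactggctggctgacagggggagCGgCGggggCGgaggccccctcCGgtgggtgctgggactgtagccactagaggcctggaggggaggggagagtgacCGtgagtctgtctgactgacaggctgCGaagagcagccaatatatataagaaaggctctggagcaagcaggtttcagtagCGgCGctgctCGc
Notch1: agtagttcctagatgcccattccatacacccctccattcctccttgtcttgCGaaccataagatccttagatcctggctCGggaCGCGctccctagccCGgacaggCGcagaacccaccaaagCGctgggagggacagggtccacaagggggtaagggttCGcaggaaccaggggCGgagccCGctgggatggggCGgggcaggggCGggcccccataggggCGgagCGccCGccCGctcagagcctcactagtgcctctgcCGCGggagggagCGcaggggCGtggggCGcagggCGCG
Notch4: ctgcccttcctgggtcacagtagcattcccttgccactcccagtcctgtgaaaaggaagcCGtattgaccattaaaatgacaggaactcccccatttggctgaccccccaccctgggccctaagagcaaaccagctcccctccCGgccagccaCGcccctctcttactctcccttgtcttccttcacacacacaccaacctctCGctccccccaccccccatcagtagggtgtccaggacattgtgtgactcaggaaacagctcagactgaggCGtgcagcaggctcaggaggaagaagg
Dll4 had 17 CG pairs in its window and Notch1 had 23, against a median of 7 over all windows. Notch4 had 5, the lowest number among the members, and Jag2 the highest with 63. The other windows held 29 in Hey2, 41 in Notch2, 22 in Jag1 and, in the 2 windows of Dll1, 15 and 24. No methylation was measured in these libraries. The E-box form CACGCG, a sequence that Hey and Hes proteins can bind, was in at least 1 window of Dll1, Dll4, Jag1, Jag2 and Notch2 and in 9.27% of all windows. CACGCG holds CG pairs itself, and the windows of these genes had 15 to 63 of them, against the median of 7. The share over all windows is therefore not a background matched for CG pairs. The form CACGTG was in no window of a member and in 7.15% of all windows.

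Notch1, the main endothelial receptor (ENSMUSG00000026923, chr2:26457903-26516663, minus strand), lay at 87.4, 65.4 and 72.2 TPM at 18 months, against 83.3, 72.8 and 64.5 TPM at 8 months. The highest and the lowest values were close in both ages. The means were 75.0 ± 11.3 TPM in the 18-month and 73.5 ± 9.46 TPM in the 8-month libraries (SD, n = 3 each). The log2 difference was 0.025, with an SE of 0.14 and a 95% interval from -0.30 to 0.35 (limma adjusted p = 0.96). On a linear scale of TPM + 1 the interval runs from 0.811 to 1.28-fold. Exons of Notch1 share 1068 bases with 0610009E02Rik and 414 bases with Gm13568, both on the opposite strand and neither among the deposited gene identifiers. In Notch1 transcripts, 9.40% of the 31-base sequences also occur in transcripts of other genes. Such sequences were counted for all members in GENCODE M21, and the transcript set that the authors used is not given. Without strand information, reads from such overlaps cannot be told apart.

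Notch4 (ENSMUSG00000015468, chr17:34564268-34588503, plus strand) lay at 25.0, 14.9 and 17.8 TPM at 18 months, against 17.8, 19.6 and 18.8 TPM at 8 months. The 18-month libraries lay on both sides of the 8-month ones, which were within a ratio of 1.10 of each other, against 1.67 at 18 months. Its log2 difference was 0.009 with an SE of 0.18 and an interval from -0.41 to 0.43 (limma adjusted p = 0.99). Without the first 18-month library the difference was -0.19, and after the GC and length correction it was 0.31 at an unadjusted p under 0.05 in the limma fit, and neither passed the adjusted threshold. None of its 31-base sequences occurs in another gene's transcripts. Notch2 (ENSMUSG00000027878, chr3:98013527-98150361, plus strand), the receptor of many epithelial and mural cells, was low, with 2.86, 1.86 and 2.93 TPM at 18 months, against 2.06, 2.32 and 3.82 TPM at 8 months. The third 8-month library, which had the highest sums of alveolar and macrophage markers, was the highest. The second 18-month library, with the next macrophage sum (1753 against 1823 TPM), was the lowest, and a link was not tested. The log2 difference of Notch2 was -0.059 with an SE of 0.24 (limma adjusted p = 0.95) and, without the third 8-month library, 0.14. The same-strand locus Gm42820 shares 541 exonic bases with Notch2 and is not among the deposited gene identifiers.

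The fourth receptor, Notch3, is known from smooth muscle cells and pericytes rather than endothelium and lay below the level for testing. It was at 0.146, 0.293 and 0.120 TPM at 18 months, against 0.691, 0.402 and 0.363 TPM at 8 months, so that each 18-month library was below each 8-month library. Of 13 markers of smooth muscle and pericytes, Notch3 included, 8 were tested and 0 passed in limma (smallest adjusted p = 0.19, Myh11). Their sum, in which Cox4i2 and Rgs5 had the highest levels, was between 37.3 and 43.9 TPM at 18 months and between 61.0 and 83.9 TPM at 8 months, 9 of the 13 reached 1 TPM in some library, and Notch3, Cnn1, Cspg4 and Lmod1 did not. The part of mural cells in the level of Notch3 was not tested.

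Dll4, the ligand of arterial and tip cells (ENSMUSG00000027314, chr2:119325784-119335962, plus strand), had the highest level of the 10 genes, above 92.9% of all genes tested. It lay at 181, 163 and 149 TPM at 18 months, against 166, 212 and 132 TPM at 8 months. The 8-month libraries held both the highest and the lowest value, so the older group lay inside the younger one. The means were 164 ± 15.8 TPM in the 18-month and 170 ± 39.8 TPM in the 8-month libraries (SD, n = 3 each), and the log2 difference was -0.028 with an SE of 0.17 and an interval from -0.42 to 0.36 (limma adjusted p = 0.97). The antisense gene Gm14207 shares 214 exonic bases with Dll4, and 4.80% of the 31-base sequences in Dll4 transcripts also occur in other genes. Gm14207 itself lay at 13.1, 16.5 and 15.9 TPM at 18 months, against 15.6, 22.3 and 13.4 TPM at 8 months, and like Dll4 was highest in the second 8-month library.

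Dll1 (ENSMUSG00000014773, chr17:15367354-15376872, minus strand), a ligand known from arterial endothelium as well as from developing tissues, lay at 67.3, 39.9 and 36.9 TPM at 18 months, against 65.4, 62.0 and 38.4 TPM at 8 months. It was the most variable of the members tested at 5 TPM or more, with a residual SD of 0.44 on the log2 scale, above 93.7% of all genes at that level. Its log2 difference was -0.21 with an SE of 0.27 (limma adjusted p = 0.80), and the interval from -0.84 to 0.42 allows anything from a fold of 0.559 to one of 1.33. A long non-coding gene on the other strand, A930024N18Rik, shares 867 exonic bases with it but is not among the deposited gene identifiers. In GENCODE M21, 17.9% of the 31-base sequences of Dll1 also occur in other genes.

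Jag1 (ENSMUSG00000027276, chr2:137081456-137116644, minus strand), which signals to neighbouring endothelial and mural cells, lay at 28.0, 17.6 and 17.7 TPM at 18 months, against 30.3, 21.5 and 18.8 TPM at 8 months. Like Dll1, it was highest in the first library of either age. The log2 difference was -0.16 with an SE of 0.23 (limma adjusted p = 0.82), and 0.032 without the first 8-month library. Jag2 (ENSMUSG00000002799, chr12:112907819-112929776, minus strand), the second Jagged ligand, lay at 9.45, 8.99 and 8.48 TPM at 18 months, against 12.1, 8.95 and 11.2 TPM at 8 months. A single 8-month library, the second, lay within the range of the 18-month libraries. Its log2 difference was -0.23 with an SE of 0.15 and an interval from -0.57 to 0.11 (limma adjusted p = 0.55), and it was 0.001 after the GC and length correction.

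**Figure D2:**
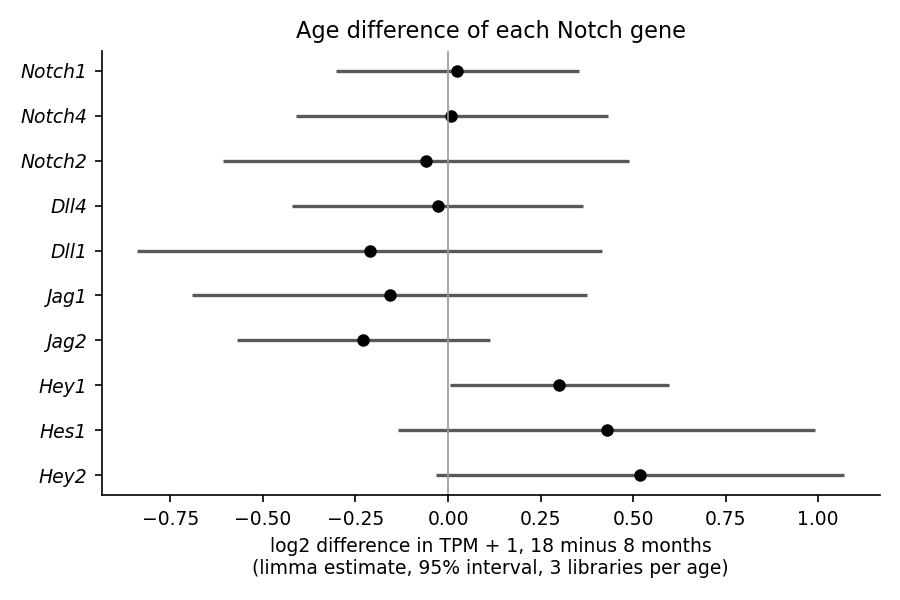
Estimated log2 difference in TPM + 1 of each Notch gene, 18 minus 8 months, as a point with its 95% interval from limma (3 libraries per age). The interval of Hey1, from 0.005 to 0.60, is the one that does not include 0, and it is not adjusted for the number of genes tested.

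The 3 targets encode basic helix-loop-helix repressors of the Hes and Hey families. Hey1 (ENSMUSG00000040289, chr3:8663359-8667256, minus strand), a repressor expressed in arteries, lay at 123, 125 and 141 TPM at 18 months, against 95.4, 125 and 96.7 TPM at 8 months. The second 8-month library, at 125.0 TPM, lay above the 2 lower 18-month libraries, and the other 8-month libraries lay below all of them. The means were 130 ± 9.83 TPM in the 18-month and 106 ± 16.7 TPM in the 8-month libraries (SD, n = 3 each), a ratio of 1.23. The log2 difference was 0.30 with an SE of 0.13 and an interval from 0.005 to 0.60, and the unadjusted p of 0.047 did not pass after adjustment (limma adjusted p = 0.36).

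Hes1 (ENSMUSG00000022528, chr16:30064384-30067796, plus strand), a repressor that many signals besides Notch induce, lay at 90.1, 101 and 90.5 TPM at 18 months, against 67.1, 103 and 48.0 TPM at 8 months. The 18-month libraries were within a ratio of 1.12 of each other and the 8-month libraries within 2.15. Its log2 difference was 0.43 with an SE of 0.24 and an interval from -0.14 to 0.99 (limma adjusted p = 0.50). The estimate depended on single 8-month libraries, being 0.17 without the third and 0.71 without the second. The third, with the lowest Hes1, was the library with the highest alveolar and macrophage marker sums. The second 18-month library, with the next macrophage sum (1753 against 1823 TPM), had the highest Hes1 of its age. A link was not tested. Hey2 (ENSMUSG00000019789, chr10:30832359-30842801, minus strand), which acts with Hey1 in arterial development, was the lowest of the members. It lay at 2.48, 2.34 and 3.15 TPM at 18 months, against 1.04, 2.43 and 1.34 TPM at 8 months, with 1 library at 8 months inside the 18-month range. Its log2 difference was 0.52 with an SE of 0.24 and an interval from -0.033 to 1.07 (limma adjusted p = 0.40).

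The second 8-month library was thus the one 8-month library at the 18-month level in all 3 targets. It also had the highest Dll4. Without it the log2 differences of Hey1, Hes1 and Hey2 were 0.43, 0.71 and 0.74, with limma adjusted p of 0.27, 0.22 and 0.32, and these are the highest estimates with any library left out. Without the third 8-month library they were 0.24, 0.17 and 0.46, with limma adjusted p of 0.56, 0.76 and 0.56. Without the first 8-month library they were 0.23, 0.41 and 0.36, with limma adjusted p of 0.54, 0.61 and 0.59. The sum of 12 arterial markers that are not members lay between 797 and 902 TPM at 18 months and between 610 and 753 TPM at 8 months, without overlap. Most of it was Gja4, at 496 to 658 TPM at 18 months and 277.5 to 419 TPM at 8 months. Gja4 was the only gene of the 12 that was higher at 18 months without overlap. Mgp, Fbln5 and Vegfc were lower without overlap, and the ages overlapped in the others. The mean log2(TPM + 0.1) of the 12 markers, which weights each gene alike, lay between 3.76 and 4.21 at 18 months and between 4.11 and 4.37 at 8 months, with overlap and the lower values at 18 months. The share of arterial cells in the levels of Hey1, Hey2 and Hes1 was not tested.

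**Figure D3:**
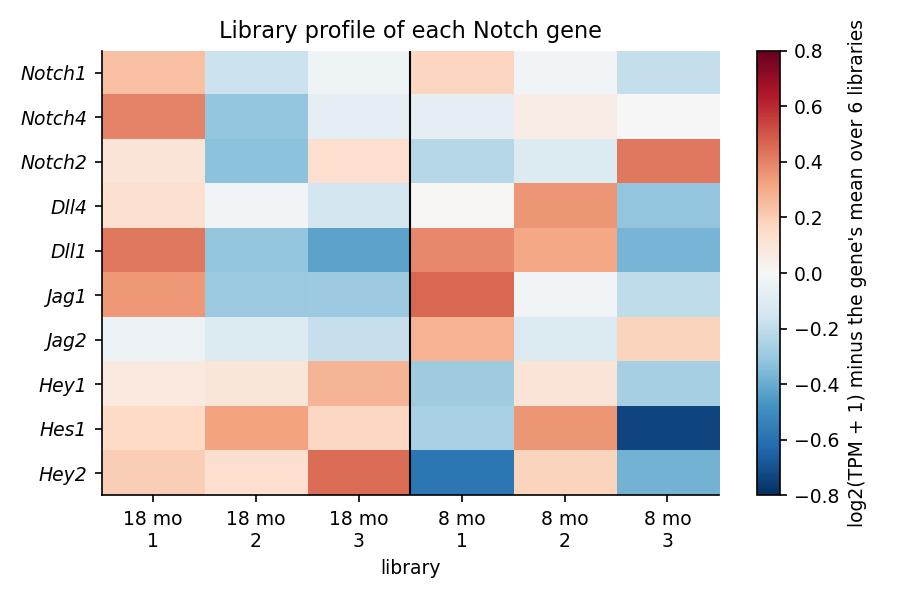
Each cell gives log2(TPM + 1) of a Notch gene in a library minus the mean of that gene over 6 libraries, with 18-month libraries in the left 3 columns and 8-month libraries in the right 3. Dll1 and Jag1 are above their means in the first library of both ages, by 0.42 and 0.35 at 18 months and by 0.38 and 0.46 at 8 months, and the targets lie below theirs in the first and the third of the 8-month libraries.

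The make-up of the ligands and of the receptors overlapped between the ages, except for the small share of Notch3. TPM are scaled by length, so levels of different genes can be summed. The 4 ligands summed to 285, 229 and 212 TPM at 18 months and to 274, 304 and 201 TPM at 8 months. Dll4 made up 63.3, 71.0 and 70.3% of that sum at 18 months, against 60.6, 69.6 and 65.9% at 8 months, a mean difference of 2.81 percentage points (exact permutation test over libraries, 2-sided, p = 0.50, 8 shares compared, adjusted p = 1). With 1 library left out the difference lay between 0.437 and 5.26 points. Dll1 made up 19.5 ± 3.56% at 18 months, against 21.1 ± 2.47% at 8 months. Jag1 made up 8.61 ± 1.10% at 18 months, against 9.18 ± 2.01% at 8 months, and Jag2 3.74 ± 0.376% at 18 months, against 4.32 ± 1.33% at 8 months (SD, n = 3 each).

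The receptors summed to 115, 82.5 and 93.0 TPM at 18 months and to 104, 95.1 and 87.4 TPM at 8 months. Notch1 held 75.8, 79.3 and 77.6% of the sum at 18 months, against 80.3, 76.6 and 73.7% at 8 months, and Notch4 held 19.6 ± 1.81% at 18 months, against 19.7 ± 2.32% at 8 months (SD, n = 3 each). Notch2 held 2.63 ± 0.468% at 18 months, against 2.93 ± 1.26% at 8 months. Notch3 was the one share whose ages did not overlap, at 0.204 ± 0.132% at 18 months, against 0.501 ± 0.142% at 8 months, and it reached the smallest p that 3 against 3 libraries allow (exact permutation test, 2-sided, p = 0.10, adjusted p = 0.80). No share could have passed 0.05 in this design.

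**Figure D4:**
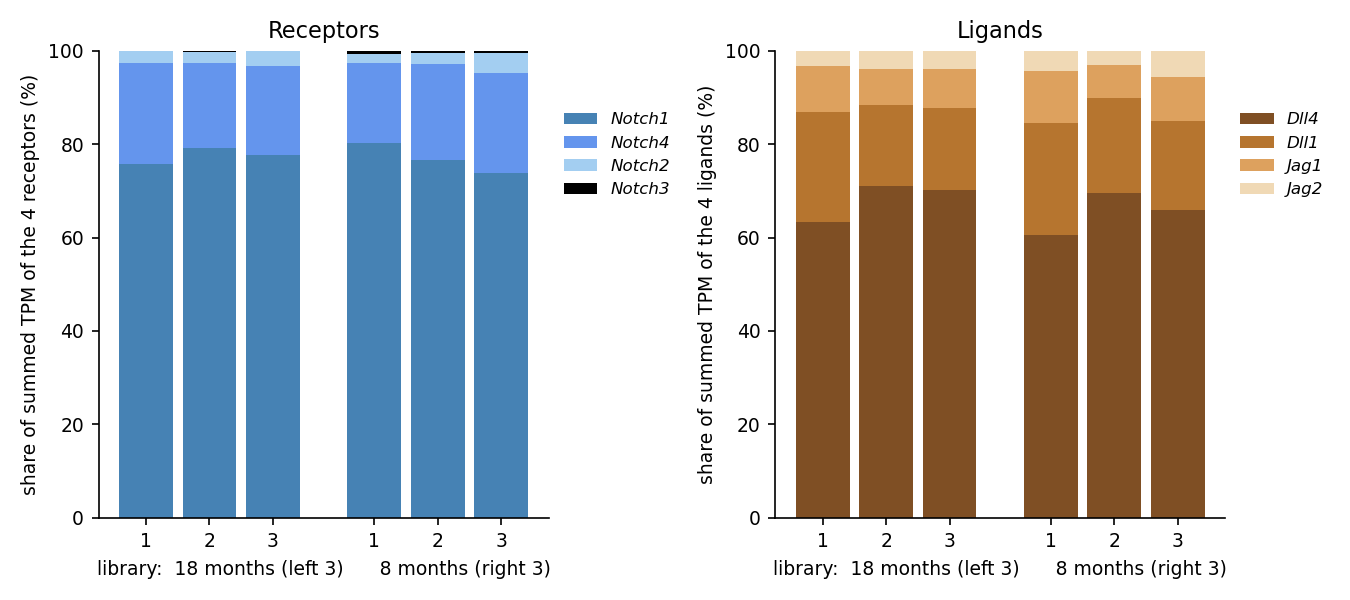
Stacked bars give the share, in percent, of each gene in the summed TPM of the 4 receptors (left panel) and of the 4 ligands (right panel) in each library, with 18-month libraries left of 8-month libraries. Notch1 fills between 73.7 and 80.3% of the receptor bars and Dll4 between 60.6 and 71.0% of the ligand bars.

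Ordered by mean TPM over the 6 libraries, the levels ran from Dll4 (167 TPM) through Hey1 (118), Hes1 (83.3), Notch1 (74.3), Dll1 (51.6), Jag1 (22.3), Notch4 (19.0), Jag2 (9.86) and Notch2 (2.64) to Hey2 (2.13). Dll4 exceeded Hey1, Hey1 exceeded Hes1 and Notch1 exceeded Dll1 in 6 of 6 libraries, although the ranges of each pair overlapped between libraries. Hes1 lay above Notch1 in 3 of 3 libraries at 18 months and in 1 of 3 at 8 months. Jag1 lay above Notch4 in 5 of 6 libraries and Notch2 above Hey2 in 3 of 6, so the order within these 3 pairs is not set by the data. The ranges of Dll1 and Jag1, of Notch4 and Jag2 and of Jag2 and Notch2 did not overlap.

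Beyond the 10 genes, 97 other genes of the pathway were sorted into 8 lists by role. All 97 were in the table and 78 were tested. By limma 0 of the 78 passed in either direction. At an unadjusted p under 0.05, 2 were higher at 18 months (2.56% of the list, beside 3.45% of all genes) and 6 were lower (7.69%, beside 9.99%). The ages did not overlap in 1 gene that was higher (1.28%, beside 4.48% of all genes) and in 18 that were lower (23.1%, beside 14.2%). The median log2 difference was -0.15 over the 78 genes and -0.079 over all genes tested. Of the 78, 18 had a positive estimate (23.1%, beside 33.8% of all genes). Both medians moved with the scaling. They were -0.060 and 0.006 under median-of-ratios scaling, with 29 positive (37.2%, beside 51.0% of all genes), and -0.023 and 0.006 after the GC and length correction, with 33 positive (42.3%, beside 51.3%). After that correction the median was 0.185 for the 10 Notch genes, 0.067 for ligand endocytosis, 0.051 for the co-repressors and between -0.091 and -0.026 for the other 6 lists, so the sign of a list's median was not stable for these 3.

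**Figure D5:**
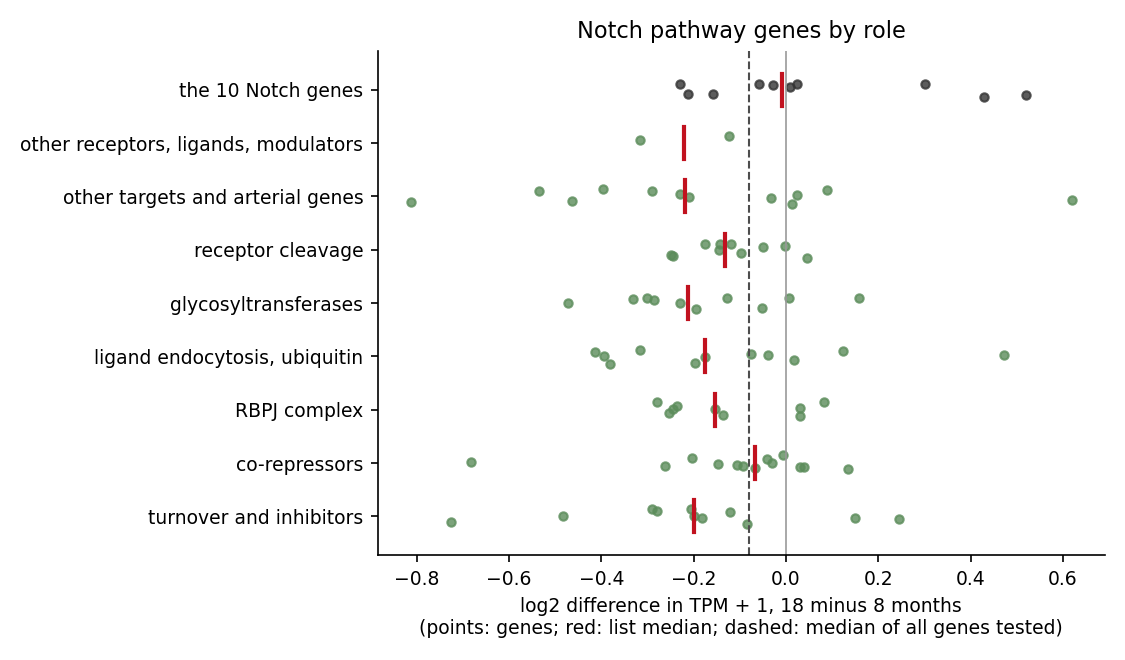
Each point is the log2 difference in TPM + 1, 18 minus 8 months, of a tested gene, in rows by role, with the list median in red and the median of all genes tested as a dashed line at -0.079. The 10 Notch genes have a median of -0.010, and the medians of the other lists lie between -0.22 and -0.068, values that move with the scaling.

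Among the other receptors, ligands and modulators, 2 of 10 were tested. Egfl7, a secreted endothelial protein that can interfere with Notch ligands, lay at 4900 ± 350 TPM in the 18-month and 5371 ± 794 TPM in the 8-month libraries (SD, n = 3 each), and Mfap2, a microfibril protein, at 715 ± 56.0 TPM in the 18-month and 900 ± 177 TPM in the 8-month libraries (limma adjusted p = 0.78 and 0.42). The ligands Dll3 and Dlk1 stayed below 1 TPM in every library.

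Of 17 other targets and arterial genes, 12 were tested, 4 with a positive and 8 with a negative estimate (66.7%, beside 66.25% of all genes). Gja4, the gap junction gene of arteries and capillaries, lay at 496, 658 and 522 TPM at 18 months, against 419, 403 and 277 TPM at 8 months. Every 18-month library was above every 8-month library, with a log2 difference of 0.62 and an SE of 0.18 (limma adjusted p = 0.21). Kdr, the VEGF receptor gene that Notch activity can repress, lay at 402, 331 and 385 TPM at 18 months, against 520, 509 and 591 TPM at 8 months, without overlap and with a log2 difference of -0.54 and an SE of 0.11 (limma adjusted p = 0.14). Kdr is also a marker of aerocytes, large alveolar capillary cells. The sum of 14 aerocyte markers, Kdr included, lay between 8775 and 9362 TPM at 18 months and between 10908 and 13077 TPM at 8 months. Cyp4b1 and Car4 had the highest levels in that sum. Kdr is also among the 12 pan-endothelial markers, whose sum was likewise lower at 18 months without overlap. Of those 12, Cdh5, Kdr, Eng, Esam and Cldn5 were lower without overlap, and the ages overlapped in the others, Pecam1 included. The sum of 11 general capillary markers went the other way without overlap. It lay between 5842 and 6434 TPM at 18 months and between 4956 and 5569 TPM at 8 months. The part of cell make-up in the level of Kdr was not tested. Hes6, which opposes Hes1, lay at 7.71 ± 1.05 TPM in the 18-month and 11.0 ± 0.907 TPM in the 8-month libraries (limma adjusted p = 0.23). Nrarp and Efnb2 were picked after their values were seen. Nrarp, an inhibitor that Notch itself induces, was at 12.4, 11.4 and 6.81 TPM at 18 months, against 13.2, 13.2 and 5.27 TPM at 8 months. Efnb2, an arterial ephrin ligand, was at 128 ± 9.97 TPM in the 18-month and 125 ± 11.4 TPM in the 8-month libraries. Hes5 was listed at 0 in every library.

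In receptor cleavage, 9 of 10 genes had a negative estimate (90%, beside 66.25% of all genes). The median of this list was -0.131 in the main fit and between -0.064 and -0.032 in 4 of the alternatives. Adam17, which makes the first cut, lay at 32.5 ± 4.83 TPM in the 18-month and 38.6 ± 2.30 TPM in the 8-month libraries, without overlap. Aph1a, a subunit gene of gamma-secretase, lay at 77.5 ± 11.6 TPM in the 18-month and 92.0 ± 11.8 TPM in the 8-month libraries (SD, n = 3 each). The limma adjusted p was 0.47 for Adam17 and 0.51 for Aph1a. Among the glycosyltransferases, which set how receptors answer the Delta and Jagged ligands, 10 of 11 were tested. Of these, 8 had a negative estimate (80%, beside 66.25% of all genes). Mfng, a FRINGE enzyme, lay at 208, 213 and 207 TPM at 18 months, against 289, 237 and 252 TPM at 8 months. All 18-month libraries lay below all 8-month libraries, with a log2 difference of -0.30 and an SE of 0.099 (limma adjusted p = 0.25). Poglut3, a glucosyltransferase gene named Kdelc2 in the annotation used, lay at 14.3 ± 0.267 TPM in the 18-month and 17.0 ± 0.392 TPM in the 8-month libraries, and Gxylt1, a xylosyltransferase, at 3.27 ± 1.17 TPM in the 18-month and 4.89 ± 1.58 TPM in the 8-month libraries.

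Ubiquitin ligases of the pathway and endocytosis genes gave 11 tested of 13. Estimates were positive for 3 and negative for 8 (72.7%, beside 66.25% of all genes). Mib2, which drives the uptake of ligands, lay at 7.13 ± 0.778 TPM in the 18-month and 9.84 ± 1.09 TPM in the 8-month libraries. Dtx3, a Deltex ubiquitin ligase, was at 15.9 ± 2.97 TPM in the 18-month and 19.8 ± 1.31 TPM in the 8-month libraries, and Neurl3 at 56.1 ± 3.70 TPM in the 18-month and 41.2 ± 11.5 TPM in the 8-month libraries (SD, n = 3). Their limma adjusted p lay between 0.29 and 0.44. Of the 9 genes of the nuclear complex, 6 had a negative estimate (66.7%, beside 66.25% of all genes). Ep300, a histone acetyltransferase, lay at 6.25 ± 0.778 TPM in the 18-month and 7.77 ± 0.136 TPM in the 8-month libraries. Kat2a, another acetyltransferase, was at 15.2 ± 1.79 TPM in the 18-month and 18.1 ± 0.891 TPM in the 8-month libraries, and Maml1, the co-activator that binds the Notch and RBPJ pair, at 5.36 ± 0.335 TPM in the 18-month and 6.54 ± 0.632 TPM in the 8-month libraries. In each of the 3 the 18-month libraries lay below the 8-month libraries, with limma adjusted p between 0.45 and 0.51. These 3 were named for the smallest unadjusted p in the list. Of its 9 genes, 4 were lower without overlap (44.4%, beside 14.2% of all genes). That share was 50% of the 2 tested other receptors and ligands and between 15.4% and 30% in the remaining lists. The median of the nuclear complex list was -0.154 in the main fit and between -0.066 and -0.026 in 3 of the alternatives. Rbpj itself, picked because the pathway runs through it, varied by library, at 3.16, 9.69 and 10.3 TPM at 18 months, against 5.35, 12.7 and 6.92 TPM at 8 months, and was lowest in the first library of either age.

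The co-repressors, which keep target genes silent without Notch, gave 13 tested of 14. Estimates were positive for 3 and negative for 10 (76.9%, beside 66.25% of all genes). Spen, a scaffold that RBPJ recruits, lay at 1.70, 0.965 and 1.66 TPM at 18 months, against 2.91, 2.64 and 3.10 TPM at 8 months. The ages did not overlap, and the log2 difference was -0.68 with an SE of 0.20 (limma adjusted p = 0.20). Ctbp1 lay at 25.6 ± 2.65 TPM in the 18-month and 30.9 ± 3.06 TPM in the 8-month libraries, and Ncor1 at 19.5 ± 2.84 TPM in the 18-month and 22.4 ± 1.61 TPM in the 8-month libraries (SD, n = 3). Among 13 genes of turnover and inhibition, 11 were tested, 2 with a positive and 9 with a negative estimate (81.8%, beside 66.25% of all genes). Dvl2, an adaptor of Wnt signalling, lay at 1.51 ± 0.278 TPM in the 18-month and 2.52 ± 0.508 TPM in the 8-month libraries. Ccnc, the cyclin of the kinase CDK8 that marks the Notch intracellular part for decay, was at 24.98 ± 0.782 TPM in the 18-month and 29.0 ± 3.08 TPM in the 8-month libraries, and Bcl6 at 4.14 ± 2.40 TPM in the 18-month and 7.44 ± 3.30 TPM in the 8-month libraries, with limma adjusted p between 0.34 and 0.50.

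For 4 members, the protein-coding genes with the most similar library profile were sought among 8995 others with a mean of at least 5 TPM. Likeness was the root mean square difference between the log2(TPM + 1) values of the pair over the 6 libraries, each gene centred on its own mean. Nearest to Dll4 were Tlr3 (0.057), Agpat2 (0.058) and Det1 (0.061). Nearest to Notch1 were Cggbp1 (0.033), Mettl16 (0.035) and Dpp9 (0.038). Notch4 had Heatr1 (0.021), Htt (0.028) and Ddx27 (0.044), and Hey1 had Exoc6 (0.044), Ak3 (0.045) and Mipol1 (0.048). With 6 libraries, a close profile describes these libraries alone.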

How the data were processed

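RNA of sorted lung endothelial cells was measured in 6 libraries. Per the labels' protocols, RNA was taken from frozen pellets with a PicoPure kit, 10 ng went into each SMARTer Ultra Low library, and 100 bp paired reads came from a HiSeq. The deposited values are TPM per gene; the authors used kallisto and mm10, per the submitters' processing notes. Not given in the sources used here are versions, transcript set and strand setting. TPM sum to between 869315 and 876126 per library and keep no read depth, so depth and counting error are unknown.

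Symbols and positions came from GENCODE M21 on GRCm38, which held 24299 of the 24520 identifiers, and 2 newer symbols were matched through RefSeq. Promoter windows are from RefSeq, GRCm38.p6. R 4.3.3 and limma 3.58.1 tested log2(TPM + 1) for 12748 genes, with an intensity trend, 2-sided, age as sole term and Benjamini-Hochberg adjustment. limma was tested on simulated data, where recovery was required only of changes far larger than the members' estimates. Shares were compared by an exact permutation test over libraries. GC content and transcript length were regressed out by loess with a span of 0.75.

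The members, lists and rules were chosen with earlier results of these data known. All members are named. Of each list the up to 3 genes with the smallest unadjusted p are named, except 1 that is not reported here, and Notch3, Rbpj, Nrarp, Efnb2, Dll3, Dlk1, Hes5 and the marker genes were added after their values were seen. Alternatives were other pseudocounts, filters, scalings, weights and gene classes, a replicate block and each library left out.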

Additional observations from a re-analysis of the deposited data

How the results depend on the processing

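In all 19 alternatives, 0 members and 0 of the other pathway genes passed in limma, with 0 to 4 and 5 to 21 at an unadjusted p under 0.05. The smallest limma adjusted p of a member was 0.14, for Hey1 with library weights. Dll1, Hes1, Hey1 and Hey2 kept their sign throughout, Hey1 between 0.23 and 0.43, Hes1 between 0.17 and 0.71, Hey2 between 0.36 and 0.77 and Dll1 between -0.48 and -0.052. Of 188 re-estimates of the members, 20 changed sign, and the cause was not tested. With the GC and length correction, alone or with the replicate block, Notch2 was at 0.164, Dll4 at 0.142 and Jag2 at 0.001. With median-of-ratios scaling Notch2 was at 0.006 and Dll4 at 0.065, with quantile normalization Dll4 at 0.001, and with library weights Notch2 at 0.027 and Notch4 at -0.049. With 1 library left out, Notch1 ran from -0.089 to 0.118, Notch2 from -0.187 to 0.139, Notch4 from -0.186 to 0.166, Dll4 from -0.194 to 0.142 and Jag1 from -0.371 to 0.032. The deviations of libraries that share a replicate number correlated across genes at -0.012, -0.090 and 0.057, and not every library correlated best with its own number. With 3 libraries per age, each centred on the mean of its age, these correlations cannot decide whether the numbers pair the libraries. The replicate block without the correction left the members' estimates as they were and called 0 genes, so it changed no call on a member.

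With 1 library left out, 5 of the 8 differences in share, in percentage points, changed sign, and those of Dll1 (-3.72 to -0.288), Dll4 (0.437 to 5.26) and Notch3 (-0.374 to -0.215) kept it. The others ran from -0.869 to 2.396 for Notch1, -0.775 to 0.413 for Notch2, -1.405 to 0.797 for Notch4, -1.626 to 0.379 for Jag1 and -1.261 to 0.065 for Jag2. Over all genes, limma called 3 in the main analysis, 0 to 2 with 1 library left out, 0 with no filter (2203 at an unadjusted p under 0.05), 16 with quantile normalization, 94 with library weights, 28 among protein-coding genes and 0 with the replicate block (1445 at an unadjusted p under 0.05), or with the block and the correction (1481). Unknown depth limits the low genes most, Notch2, Hey2 and Notch3 among them.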
